A study of Mus musculus with 12 samples.

Results

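RAW264.7 is a mouse macrophage line, and the 6 arrays described here compared RAW264.7 cells in which Abhd5 was knocked down with RAW264.7 controls. They were chosen by cell line and treatment from the labels and make up 6 of the 12 samples of the series. The other 6 arrays hold CT-26 mouse colon carcinoma cells primed by either kind of macrophage. The stated aim was to explore what lies downstream of ABHD5 in macrophages and how it bears on cancer cells. The 3 control arrays hold cells that received the PLKO vector, and the 3 knockdown arrays (ABHD5-KD) hold cells that received an ABHD5 shRNA. All 6 samples are total RNA from unprimed RAW264.7 cells, extracted with TRIzol and labelled with Cy3. The labels do not say how many hairpins were used, whether the cells were a clone or a pool, or whether replicates came from separate cultures, so the p-values measure the spread between these arrays, which may be technical.

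ABHD5, also called CGI-58, is a lipid droplet protein that activates the lipase ATGL (encoded by Pnpla2), the enzyme that starts the breakdown of stored triglyceride. Perilipins hold ABHD5 on the droplet and release it when lipolysis is switched on. In macrophages, fatty acids freed from droplets feed oxidation and the synthesis of lipid mediators, and macrophages store neutral lipid readily. Macrophages also secrete chemokines, cytokines and matrix-degrading proteases, and read their surroundings through lectins, Fc receptors, Toll-like receptors and paired inhibitory and activating receptors.

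Each array gave one level per gene, the log2 processed signal minus the array's 75th percentile, so that a level of 0 lies at that percentile and a difference of 1 is a 2-fold change. Levels compare arrays, not genes. Controls 1 and 2 lay on one slide, and control 3 lay on a second slide with all 3 knockdown arrays, each slide scanned once. The share of probes well above background was 56.5% and 57.8% on controls 1 and 2, 72.7% on control 3 and 69.0% to 73.0% on the knockdown arrays. Pearson's r over probes was 0.985 between controls 1 and 2, 0.974 and 0.978 between control 3 and those 2 controls, and 0.977 to 0.983 between control 3 and the knockdown arrays. Between controls 1 and 2 and the knockdown arrays it was 0.959 to 0.967. Control 3 was thus nearer to knockdown arrays 1 and 2 than to either other control, and about as near to knockdown array 3. Every change below is therefore given against all 3 controls, with the change against control 3 alone or the fit with the slide as a block (the slide block) where they bear on it. Within the slide of control 3, 1 array stands for all controls. Controls 1 and 2 are the only arrays on their slide, so the change in the slide block is also the change against control 3. There they add only to the estimate of spread.

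The macrophage label held against its markers. On every array 14 of the 16 macrophage markers exceeded background clearly, and the list's summed level was 8.36 to 8.64 in controls and 8.48 to 8.67 in knockdown cells. Of 14 neutrophil markers, 7 exceeded background clearly on each of the 6 arrays, and 11 did so on each knockdown array. Ly6g, Ltf and Retnlg were not well above background on any array. The summed level of the neutrophil markers was 1.22 to 2.03 in controls and 3.57 to 3.87 in knockdown cells. Mast cell markers summed to -2.38 to -2.17 in controls and -0.64 to -0.55 in knockdown cells, with Cpa3, Fcer1a, Mcpt1, Mcpt2 and Ms4a2 not well above background anywhere. B cell markers summed to 3.82 to 3.99 and 3.20 to 3.56, with Ms4a1, Fcmr, Jchain and Vpreb3 among those not well above background on any array. Dendritic cell markers summed to 5.24 to 5.42 in controls and 4.79 to 5.23 in knockdown cells, and T and NK cell markers to 1.17 to 1.46 and 1.22 to 1.46. Epithelial markers summed to 0.98 to 1.49 and 0.64 to 0.70, fibroblast markers to -2.12 to -1.42 and -2.17 to -1.55, and endothelial markers to 2.79 to 3.17 and 2.23 to 2.35. B cell markers well above background on all 6 arrays numbered 4 of 10, and T and NK cell markers 6 of 13. For dendritic and mast cell markers the counts were 5 and 0 of 10. For epithelial, fibroblast and endothelial markers they were 5 of 14, 3 of 12 and 6 of 10. In bulk RNA, a different share of cells of one type and a different level per cell cannot be told apart.

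Abhd5 itself was lower on every knockdown array. Its probe, at chr9:122288857-122288916 in mm9, gave levels of 1.38, 1.93 and 1.52 on controls 1 to 3 and 0.25, 0.23 and 0.39 on knockdown arrays 1 to 3. The 2 groups did not overlap, which held for 52.2% of all genes tested (12.5% higher and 39.7% lower). Abhd5 fell by 1.32 ± 0.20 (limma moderated SE, n = 3 against 3; adjusted p = 0.00344), a 2.5-fold lower level, and the change against control 3 was -1.23. Fitting the slide as a block raised its adjusted p to 0.0553, and on the slide of control 3 alone it was 0.0168. Of the other probes, one gave -1.30, and the one at chr9:122289983-122290042 gave -0.78, which did not pass when p-values were adjusted over probes (0.0759).

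In knockdown cells 2007 genes rose and 3769 fell of 25304 tested (limma, Benjamini-Hochberg adjusted p under 0.05), which is 7.93% and 14.9% of the genes, or 22.8% in all. The median change over all genes was -0.30, and -0.25 against control 3, so small falls lie close to the shift of the whole array. Centring each array on its median moved the median change to -0.09 and the split to 2381 higher and 1427 lower. Quantile normalization gave 2194 higher and 1908 lower, and the normexp background correction 1731 and 5826. Changes of at least 2-fold were called for 1410 higher and 1139 lower genes (5.57% and 4.5%, or 10.1% in all), and of the called genes 449 higher and 64 lower ones differed by at least 2 on the log2 scale against all controls and against control 3 as well. The balance at 2-fold turned in some settings: 1675 higher and 2074 lower without control 3, 826 and 1061 when only genes well above background on all 6 arrays were tested, and 1054 and 1214 without a filter on dim probes.

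The fits differed in how many genes they called. All 2007 higher and all 3769 lower genes kept their direction against control 3. Control 3 is part of the control mean in the fit, so this follows in part from the call. Fitting the slide as a block left 890 rises and 273 falls (3.52% and 1.08%, or 4.6% in all, each by at least 2-fold). On the slide of control 3 alone 1214 rose and 645 fell (4.8% and 2.55%, or 7.35% in all), and by at least 2-fold 1104 rose and 498 fell (4.36% and 1.97%, or 6.33% in all). Of the genes higher in the fit over all controls, 846 were also called with the block, and of the lower ones 256. The number of changed genes was 2665 without knockdown 1, 1957 without knockdown 2 and 1682 without knockdown 3. It was 2770 without control 1, 5239 without control 2 and 7361 without control 3. Each of these fits also has fewer arrays, so the counts do not show which calls rested on a single array. How far the slide accounts for the difference between the fits was not tested.

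**Figure D1:**
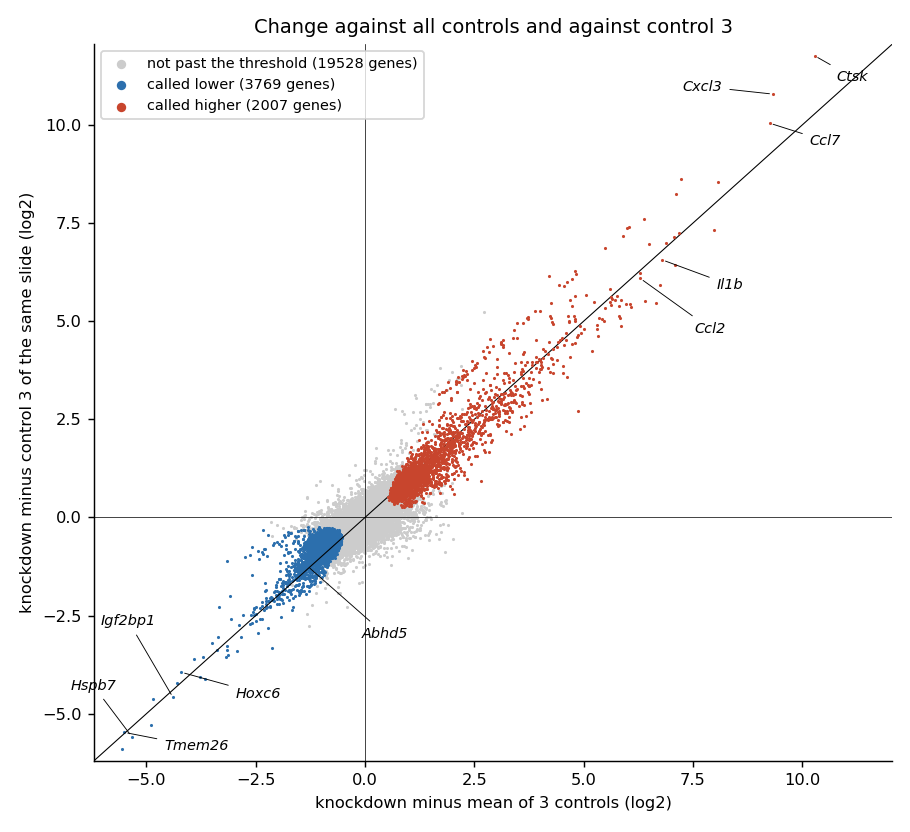
Change of each tested gene against the mean of 3 controls (horizontal axis, log2) and against control 3 alone (vertical axis, log2), red for called higher, blue for called lower and grey for the rest. Genes on the diagonal changed as much against the control of the shared slide as against all 3: Il1b is at 6.80 and 6.56, and Tmem26 at -5.51 and -5.48.

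The largest rise among genes measured on all 6 arrays was that of Il1b, which encodes the inflammatory cytokine interleukin-1 beta. Its level was -3.95, -3.41 and -3.33 on controls 1 to 3 and 2.77, 3.26 and 3.68 on the knockdown arrays. Every knockdown array lay far above every control, a rise of 6.80 ± 0.28 (adjusted p = 4.25e-06; 111-fold). Ccl2, the chemokine that draws monocytes through the receptor Ccr2, gave -1.16, -0.85 and -0.70 in controls and 5.23, 5.54 and 5.40 in knockdown cells. Both groups were tight, and the rise was 6.29 ± 0.19 (adjusted p = 3.75e-06; 6.09 against control 3). Ppfibp2, which encodes a liprin scaffold protein, was at -3.22, -3.96 and -3.49 in controls and at 2.80, 2.70 and 2.72 in knockdown cells. The 3 knockdown values differed by less than the controls did among themselves, and the rise was 6.29 ± 0.22. Pf4 (platelet factor 4, the chemokine Cxcl4) was at -2.39, -1.81 and -1.95 and 3.46, 3.59 and 3.77, a rise of 5.66 ± 0.21 with no overlap. Ms4a6d, a membrane protein of the Ms4a family found on macrophages, was at -3.76, -3.46 and -3.94 in controls and 1.76, 1.81 and 2.08 in knockdown cells, a rise of 5.6 ± 0.20. These 5 genes kept the call with the slide as a block. Their ranking used the change against control 3, so this follows in part from the choice.

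**Figure D2:**
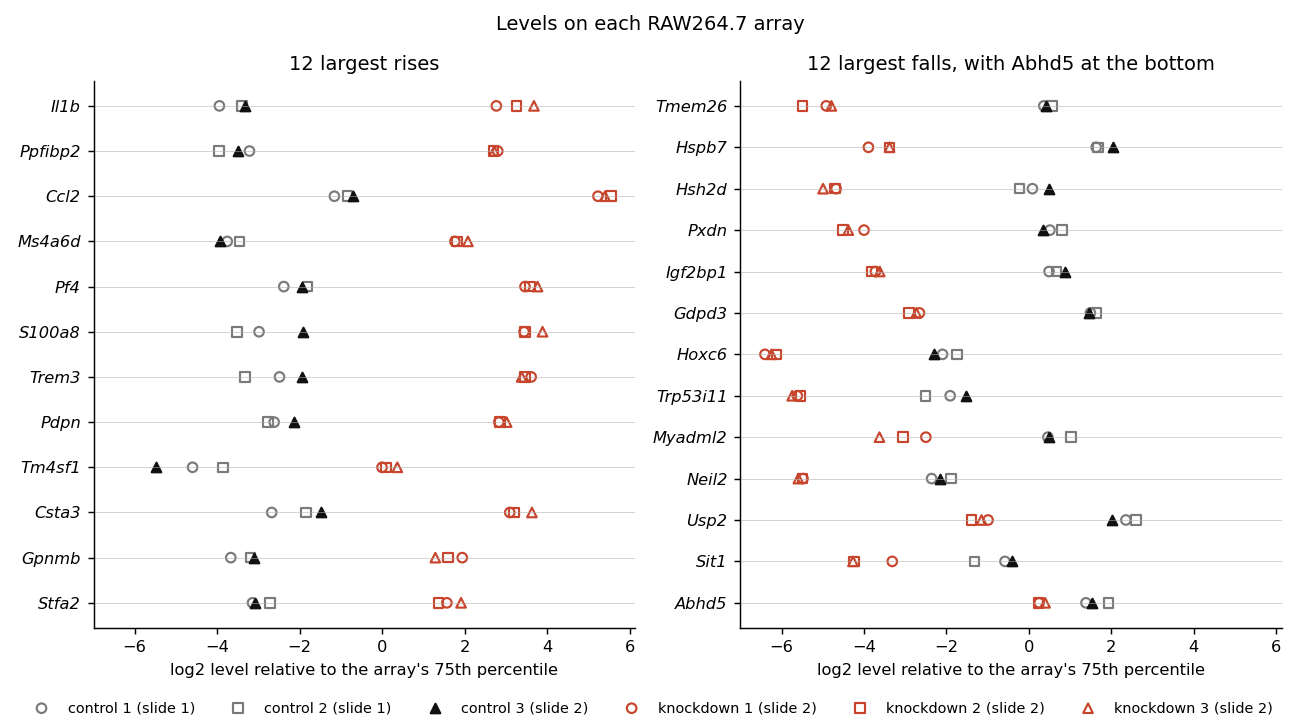
Levels (log2 relative to the array's 75th percentile, horizontal axis) of the 12 largest rises (left) and the 12 largest falls with Abhd5 (right), 1 symbol per array, controls in grey and black and knockdown arrays in red. In each gene shown the knockdown arrays lie wholly on one side of the controls: for Ccl2 the controls sit between -1.16 and -0.70 and the knockdown arrays between 5.23 and 5.54.

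Of the other large rises, some had less even controls. S100a8, a calcium-binding protein abundant in neutrophils and inflammatory monocytes, was at -2.99, -3.52 and -1.93 in controls and 3.44, 3.46 and 3.89 in knockdown cells. Control 3 was the highest control, so the rise of 6.41 ± 0.37 was 5.53 against control 3 alone. Trem3, a receptor of the TREM family, was at -2.49, -3.32 and -1.95 and 3.61, 3.46 and 3.38, again with control 3 the highest control (rise 6.07 ± 0.32, and 5.43 against control 3). Others had controls about as even as those of Il1b. Pdpn (podoplanin, a mucin-like membrane protein that binds CLEC-2) rose by 5.42 ± 0.21, and a second probe gave 4.23. Gpnmb, a glycoprotein of the lysosome and cell surface, rose by 4.93 ± 0.24. Stfa2, of the stefin family of cysteine protease inhibitors, rose by 4.60 ± 0.21. The controls of Tm4sf1, a tetraspanin-like membrane protein, and of the stefin Csta3 were again more spread, and these genes rose by 4.80 ± 0.37 and 5.31 ± 0.31.

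Several genes were well above background on all 3 knockdown arrays and on no control array. For these the control level is only a limit, so the bound sets the knockdown mean against the lowest signal called above background on each control array. There were 192 such genes among the 2007 called rises, and 10 of the 3769 called falls were measured only in controls. These 2 counts rest on unlike detection limits. The lowest signal called above background was -4.80 on controls 1 and 2 and -6.93 to -6.32 on the knockdown arrays. Ctsk (cathepsin K, the collagen-degrading protease of osteoclasts) was at -6.77, -6.55 and -8.88 in controls and 3.17, 2.71 and 2.77 in knockdown cells, at least 323-fold higher, or 794-fold against the limit of control 3. Its fitted change after the normexp correction, which lifts dim signals, was 7.48 on the log2 scale. Ccl7, a second monocyte-drawing chemokine, was at least 283-fold higher, and Cxcl3, a neutrophil-drawing chemokine, at least 164-fold. Atp6v0d2, the proton pump subunit typical of osteoclasts, was at least 79.8-fold higher. Tfec, a transcription factor of the MiT family found in macrophages, was at least 34.7-fold higher, and Plpp3, which removes the phosphate from bioactive lipids, at least 20.1-fold.

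The largest falls were in genes with other roles. Tmem26, which encodes a membrane protein, was at 0.36, 0.55 and 0.41 in controls and -4.91, -5.49 and -4.79 in knockdown cells and fell by 5.51 ± 0.22 (adjusted p = 4.25e-06). Its control values were close to each other and far above each knockdown value. Hspb7, a small heat shock protein known from heart muscle, was at 1.63, 1.68 and 2.03 and -3.89, -3.38 and -3.38, and fell by 5.33 ± 0.22. Igf2bp1, an RNA-binding protein of fetal cells and tumours, was at 0.49, 0.67 and 0.87 and -3.72, -3.80 and -3.62, with no overlap, and fell by 4.39 ± 0.18. Hsh2d, an adaptor protein of haematopoietic cells, fell by 4.91 ± 0.23. Pxdn, the peroxidasin that cross-links collagen IV, fell by 4.85 ± 0.21, and its second probe gave -2.49. Gdpd3, a glycerophosphodiesterase that releases lysophosphatidic acid, fell by 4.29 ± 0.17. The remaining 6 of the 12 largest falls were Hoxc6 (-4.20 ± 0.20), Myadml2 (-3.71 ± 0.30), Trp53i11 (-3.65 ± 0.25), Usp2 (-3.50 ± 0.21), Neil2 (-3.38 ± 0.19) and Sit1 (-3.18 ± 0.33). Hoxc6, Trp53i11 and Neil2 were dim in knockdown cells, so the size of their falls is less certain. After the normexp correction they changed by -2.92, -2.80 and -2.58. All 12 kept the call with the slide as a block, which follows in part from a ranking that used the change against control 3. Of genes measured on all controls and on no knockdown array, Odf3l1 was at least 14.5-fold lower. Bounds for the other 4 such genes named were smaller, 3.80-fold for Ebf1, 3.71-fold for Olfr52, 3.55-fold for Olfr692 and 3.03-fold for Defb22. Against the limit of control 3 those of Ebf1, Olfr52, Olfr692 and Defb22 were 2.20, 1.42, 1.69 and 1.01, and the call of Defb22 was lost with median centring (adjusted p = 0.063). The slide block ended the calls of Ebf1, Olfr52 and Defb22 (adjusted p 0.0762, 0.151 and 0.396), and on the slide of control 3 alone Olfr52 and Defb22 did not pass (0.107 and 0.300).

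Gene lists were then read across the fit of all genes. They hold 1235 distinct genes tested, of which 425 were called in the fit over all controls. With the slide as a block 224 list members were called, not all of them among the 425. For each list the counts of genes that rose and fell are given first. The counts with the slide as a block and the range when 1 array is left out follow in brackets, and they are to be read against 7.93% higher and 14.9% lower over all genes (3.52% and 1.08% with the block). Where only 1 control array measured a gene above background, its control mean lies partly below detection and the size of its change is uncertain, and the change after the normexp correction follows its name in brackets.

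**Figure D3:**
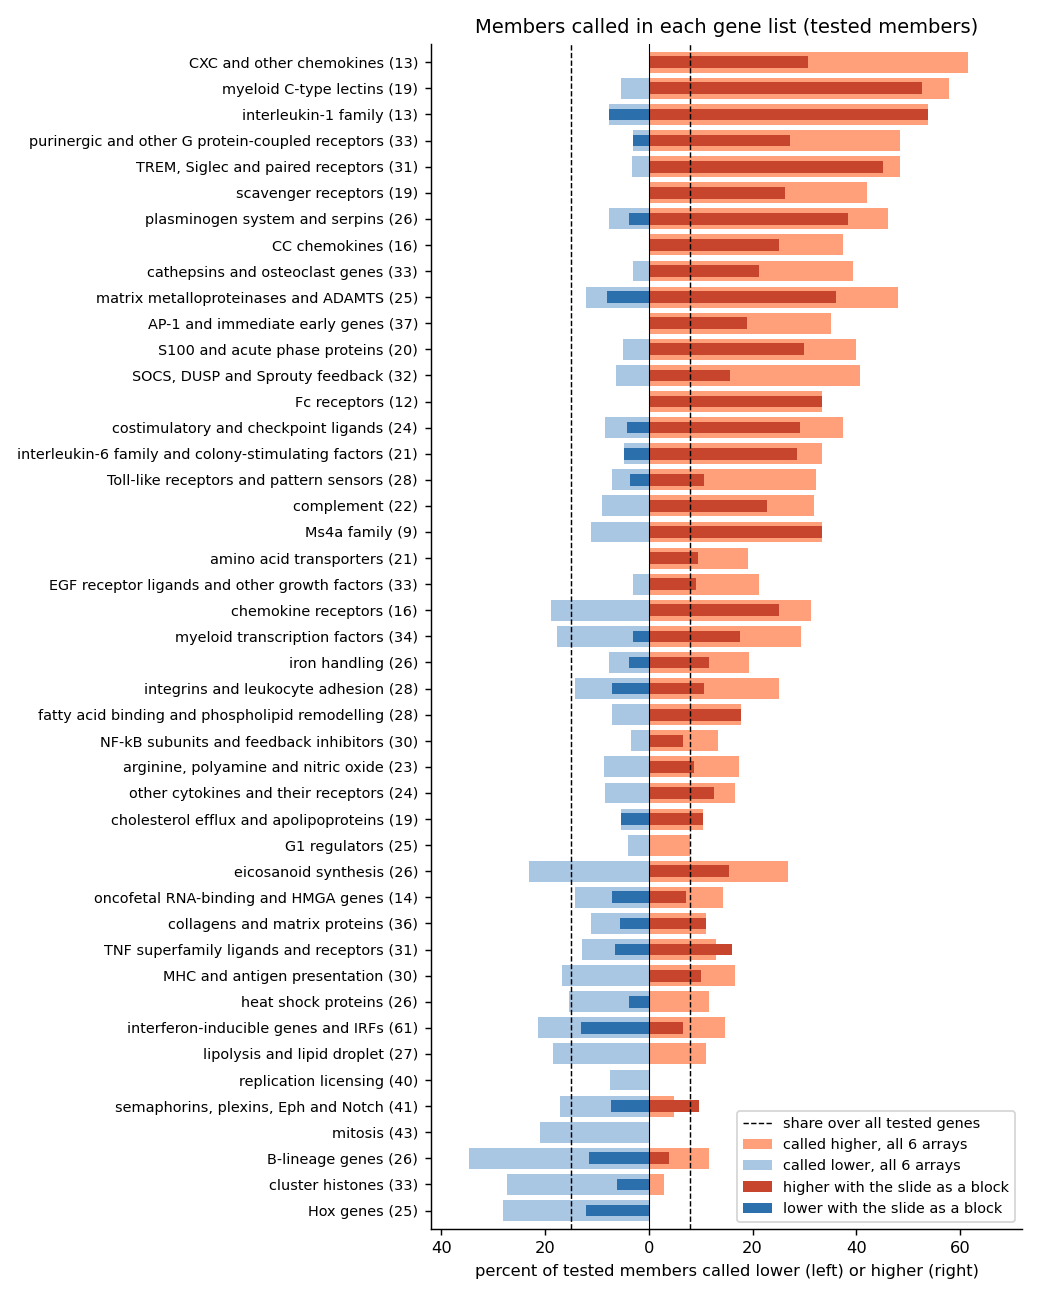
Percent of the tested genes of each list that fell (left, blue) or rose (right, red) in the fit over all 6 arrays (pale bars) and with the slide as a block (dark bars), with the number tested in brackets. Dashed lines mark the shares over all genes, 14.9% lower and 7.93% higher. The CXC chemokine, C-type lectin and interleukin-1 lists have the highest shares of rises, and the Hox, histone and mitosis lists have mostly falls. Rises include genes tested only through the knockdown arrays.

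Several of the chemokines tested rose, and none fell. Among 16 CC chemokines, 6 rose and 0 fell (4 and 0 with the slide block, 4 to 9 and 0 without 1 array), and the median change was 0.62. Ccl12 was at least 3.65-fold higher, and Ccl24, which draws eosinophils, rose by 1.51 ± 0.19. Ccl6 rose by 1.5 ± 0.31 and Ccl17 by 0.65 ± 0.18. The neutrophil and monocyte chemokines of inflamed macrophages were not all among them: Ccl3, Ccl4 and Ccl5 had changes of 0.36 ± 0.18, 0.65 ± 0.23 and 0.59 ± 0.19 that did not pass the test. The 13 CXC and other chemokines tested had 8 rises and 0 falls (4 and 0 with the slide block, 5 to 8 and 0 without 1 array), at a median change of 1.17. Cxcl2, a ligand of the neutrophil receptor Cxcr2, was at 0.32, 1.01 and 1.53 in controls and 4.33, 4.32 and 4.14 in knockdown cells and rose by 3.31 ± 0.29. Ppbp was at least 7.49-fold higher, and Cxcl1 rose by 1.17 ± 0.22. Cxcl5 was called and well above background only in knockdown cells, too dim for a bound over all controls. Its fitted change was 0.96, and -0.16 after the normexp correction, and on the slide of control 3 alone it did not pass (adjusted p = 0.0732). The interferon-induced chemokine Cxcl10 had a change of -0.21 ± 0.35 (adjusted p = 0.656), and Cxcl9 rose by 2.04 ± 0.56 but by only 0.60 against control 3. The slide block ended the calls of Ccl6, Ccl17, Cxcl1, Cxcl9 and Cxcl5 (adjusted p 0.0846 to 0.428). Controls were measured above background on 1 control array for Cxcl9 (0.64) and on 2 control arrays for Cxcl1.

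Promoter sequences are shown for Il1b, which had the largest rise among genes measured on all 6 arrays, and for 3 neighbouring chemokine genes that rose and have kappaB matches. The 3 chemokine genes were chosen after their matches were seen. The windows are the 300 bases around the first base of the RefSeq transcript, most of them upstream of it, in build GRCm38.p6. Capitals mark matches on either strand to the NF-kappaB motif (GGG, any 3 bases, TTCC), the AP-1 motif TGANTCA and the TATA box TATAAA.
Il1b, chr2:129371090-129371389, minus strand: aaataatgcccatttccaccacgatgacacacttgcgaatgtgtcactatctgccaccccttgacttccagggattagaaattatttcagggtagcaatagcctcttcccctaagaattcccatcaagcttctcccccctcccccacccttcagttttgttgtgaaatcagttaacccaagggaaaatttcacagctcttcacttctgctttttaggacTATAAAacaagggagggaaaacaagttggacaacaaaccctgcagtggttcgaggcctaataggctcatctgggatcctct
Cxcl1, chr5:90890995-90891294, plus strand: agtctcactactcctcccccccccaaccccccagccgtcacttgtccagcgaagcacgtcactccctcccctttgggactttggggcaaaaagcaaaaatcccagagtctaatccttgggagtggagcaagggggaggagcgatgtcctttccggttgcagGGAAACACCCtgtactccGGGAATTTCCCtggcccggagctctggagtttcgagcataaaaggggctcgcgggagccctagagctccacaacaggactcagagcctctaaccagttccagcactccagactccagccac
Cxcl2, chr5:90903649-90903948, plus strand: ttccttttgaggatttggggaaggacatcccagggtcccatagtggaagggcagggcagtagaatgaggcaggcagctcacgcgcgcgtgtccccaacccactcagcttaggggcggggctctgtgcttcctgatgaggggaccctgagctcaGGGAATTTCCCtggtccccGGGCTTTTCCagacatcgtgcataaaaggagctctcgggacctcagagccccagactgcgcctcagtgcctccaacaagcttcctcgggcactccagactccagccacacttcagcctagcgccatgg
Cxcl3, chr5:90785851-90786150, plus strand: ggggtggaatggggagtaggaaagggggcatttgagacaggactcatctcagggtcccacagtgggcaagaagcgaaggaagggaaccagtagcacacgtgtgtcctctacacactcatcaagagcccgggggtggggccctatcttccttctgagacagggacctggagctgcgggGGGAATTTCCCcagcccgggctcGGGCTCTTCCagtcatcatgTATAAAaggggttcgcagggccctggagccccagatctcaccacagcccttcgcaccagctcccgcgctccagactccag
The windows of Pf4 and Ppbp, which rose and lie in the same stretch, and of Ccl12 hold no kappaB match. Each of the 3 chemokine windows shown holds 3 kappaB matches in a pair of stretches just upstream of the start, since a palindromic stretch is matched on both strands. In Cxcl1 they begin at -89, -71 and -70, in Cxcl2 at -97, -96 and -78, and in Cxcl3 at -73, -72 and -50. The Il1b window holds none and has a TATA box at -31. Such a kappaB match is present in 5.56% of 32851 promoter windows, an AP-1 match in 7.81% and a TATA box in 13.6%. Among the 9 largest rises with a window, 1 held a kappaB match (Tm4sf1) and 1 an AP-1 match (Gpnmb). Among the 9 largest falls with a window none held either. The C/EBP motif TTNNGNAA, in 40.7% of all windows, was present in 8 of the 9 rises and 1 of the 9 falls, but also in 4 of 5 windows of genes measured only in controls and 3 of 4 of genes measured only in knockdown cells. The interferon element (GAAA, any 2 bases, GAAA), in 3.44% of all windows, was in 1 and 0 of the rises and falls and in 1 and 0 of the genes measured only in controls and only in knockdown cells. A match is a description of letters and not a bound site. Ccl2, Ccl7, Ms4a6d, Trem3 and Igf2bp1 are named without a sequence.

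Receptors for these ligands changed in both directions. Of 16 chemokine receptors tested, 5 rose and 3 fell (4 and 0 with the slide block, 4 to 6 and 1 to 3 without 1 array), with a median change of -0.29. Ccr1, a receptor for Ccl3, Ccl5 and Ccl7, was at -4.65, -6.73 and -7.36 in controls and 0.24, 0.99 and 1.40 in knockdown cells. All knockdown arrays lay above the controls, which were widely spread, and the rise was 7.12 ± 0.63. Ccr2, the Ccl2 receptor, was at least 1.60-fold higher. Cxcr3, the receptor for Cxcl9 and Cxcl10, rose by 2.60 ± 0.26, and the scavenging receptor Ccrl2 by 2.05 ± 0.18. Cx3cr1, the fractalkine receptor of resident macrophages, fell by 1.32 ± 0.21. Cxcr5 (-0.77 ± 0.19) and Ackr1 (-0.79 ± 0.21) were also lower. Cx3cr1, Cxcr5 and Ackr1 were no longer called under the slide block (adjusted p 0.0738 to 0.191). In controls the signal exceeded background on 1 control array for Ccr1 (5.17).

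Several ligands of the interleukin-1 family rose, and so did the antagonist of the interleukin-1 receptor. Among 13 interleukin-1 family genes, 7 rose and 1 fell (7 and 1 with the slide block, 5 to 8 and 1 without 1 array), and the median change was 1.29. Beside Il1b, Il1a was at least 15.5-fold higher. Il1rn, the natural antagonist of the interleukin-1 receptor, was at -0.68, -0.36 and -0.16 in controls and 3.31, 3.69 and 3.85 in knockdown cells. It rose without overlap by 4.01 ± 0.22 (adjusted p = 1.53e-05). Il1f9 and Il1f6, the older names of interleukin-36 gamma and alpha, rose by 3.91 ± 0.30 and 3.75 ± 0.32. Il33, an alarmin, was at least 1.06-fold higher. Sigirr, which encodes an inhibitory receptor of the family, fell by 1.25 ± 0.17. Il18 had a change of 0.44 ± 0.23 that did not pass the test. Background was exceeded in controls on 1 control array for Il1f9 (2.61) and on 2 control arrays for Il1f6.

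Some cytokines that act on myeloid growth rose, and most of the list did not pass. The 21 genes of the interleukin-6 family and the colony-stimulating factors tested had 7 rises and 1 fall (6 and 1 with the slide block, 7 to 8 and 1 to 2 without 1 array), at a median change of 0.27. Il6 was at -6.84, -6.07 and -5.39 in controls and -0.49, -0.94 and -0.88 in knockdown cells, a rise of 5.33 ± 0.34. Lif, of the same family, was at -4.31, -3.74 and -4.12 and 0.32, 0.18 and 0.71, with tight groups and a rise of 4.46 ± 0.22. Csf2 and Csf3, the granulocyte-macrophage and granulocyte colony-stimulating factors, rose by 3.72 ± 0.37 and 3.81 ± 0.42. Osm rose by 2.17 ± 0.20, and Csf2rb2, a receptor chain for interleukin-3, by 3.04 ± 0.17. Csf1 rose by 2.47 ± 0.42, while its receptor Csf1r had a change of -0.34 ± 0.22 that did not pass. Ctf1 fell by 1.34 ± 0.17. Of 24 other cytokines and receptors tested, 4 rose and 2 fell (3 and 0 with the slide block, 3 to 6 and 1 to 2 without 1 array), with a median change of 0.19. Il10, the main anti-inflammatory cytokine of macrophages, rose by 2.32 ± 0.21, Il23a by 1.61 ± 0.19, and Il7r was at least 2.0-fold higher. Il12rb1 fell by 1.73 ± 0.30. Of these, Csf1 and Il12rb1 did not keep the call under the slide block (adjusted p 0.102 to 0.115). Detection in controls was limited to 1 control array for Il6 (3.51) and to 2 control arrays for Csf2.

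In the TNF superfamily the changes were mixed in the scaling used here, but 9 genes rose and 2 fell with median centring. Quantile normalization gave 10 rises and 2 falls. Among 31 TNF superfamily ligands and receptors, 4 rose and 4 fell (5 and 2 with the slide block, 4 to 7 and 2 to 5 without 1 array), and the median change was 0.28. Tnfrsf1b, TNF receptor type 2, was at -4.56, -4.72 and -3.94 in controls and 0.45, 1.04 and 1.67 in knockdown cells and rose by 5.46 ± 0.33. Fas rose by 2.60 ± 0.18, and Tnfsf13b (BAFF, a survival factor for B cells) by 1.90 ± 0.16. The BAFF receptors Tnfrsf13b and Tnfrsf13c fell (-1.31 ± 0.21 and -1.34 ± 0.34), and the lymphotoxin genes Lta and Ltb were lower (-1.64 ± 0.21 and -0.88 ± 0.24). Tnf itself had a change of 0.56 ± 0.20 (adjusted p = 0.0727). The calls of Tnfrsf13b and Ltb were lost under the slide block (adjusted p 0.0698 to 0.270). Signal was well above background on only 2 control arrays for Tnfrsf1b and Tnfrsf13c.

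Few of the intracellular regulators of these pathways passed the test. The 30 NF-kB subunits and feedback inhibitors tested had 4 rises and 1 fall (2 and 0 with the slide block, 2 to 4 and 0 to 1 without 1 array), at a median change of 0.11. Irak3, which restrains Toll-like receptor signalling, was at -2.58, -2.90 and -2.5 and 0.55, 0.36 and 0.47 and rose by 3.12 ± 0.18. Rel, the c-Rel subunit, rose by 1.88 ± 0.19. Rela and Nfkb1 had changes of -0.01 ± 0.18 and 0.02 ± 0.22 that did not pass the test, and Nfkbia one of -0.31 ± 0.19. Of 28 Toll-like receptors and pattern sensors tested, 9 rose and 2 fell (3 and 1 with the slide block, 6 to 10 and 1 to 2 without 1 array), with a median change of 0.08. Tlr4, the lipopolysaccharide receptor, rose by 2.42 ± 0.22, and its partner Ly96 (MD-2) by 1.15 ± 0.18. Nlrc4 and Nlrp3, inflammasome sensors, rose by 2.84 ± 0.27 and 1.5 ± 0.34, and Nod1 by 1.48 ± 0.21. Cd180 rose by 1.38 ± 0.22 while Ly86 (MD-1), the protein it pairs with, fell by 1.87 ± 0.19. Tlr2 (-0.05 ± 0.16) and Myd88 (0.09 ± 0.19) did not pass the test. The slide block ended the calls of Ly96, Nlrp3 and Cd180 (adjusted p 0.0545 to 0.113).

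Many surface lectins and paired receptors rose. Among 19 myeloid C-type lectins, 11 rose and 1 fell (10 and 0 with the slide block, 7 to 11 and 0 to 3 without 1 array), and the median change was 1.70. Clec4a1, a relative of the inhibitory receptor DCIR, was at -6.89, -5.66 and -5.97 in controls and -0.61, -0.62 and -0.40 in knockdown cells, and it rose without overlap by 5.63 ± 0.30. Clec7a (Dectin-1, the receptor for fungal beta-glucan) was at least 3.95-fold higher. Clec4e (Mincle) and Clec4n (Dectin-2) rose by 3.08 ± 0.36 and 2.71 ± 0.65. Clec10a, a galactose lectin, rose by 2.47 ± 0.23. Clec14a, an endothelial lectin, fell by 0.97 ± 0.21. The 31 TREM, Siglec and paired receptors tested had 15 rises and 1 fall (14 and 0 with the slide block, 14 to 16 and 0 to 2 without 1 array), at a median change of 0.71. Pilrb2 and Pilrb1, activating receptors, rose by 5.61 ± 0.29 and 4.06 ± 0.27, and their inhibitory counterpart Pilra by 1.90 ± 0.23. Cd200r1, an inhibitory receptor of myeloid cells, was at -6.27, -5.55 and -5.86 and -1.29, -1.32 and -1.93 and rose by 4.38 ± 0.26. Sirpa, which reads Cd47 on other cells, rose by 2.53 ± 0.18, and Lilrb4a by 2.69 ± 0.20. Trem1 and Trem2 had changes of 0.36 ± 0.31 and -0.63 ± 0.20 that did not pass. Clec14a was no longer called under the slide block (adjusted p 0.268). Controls were measured above background on 1 control array for Clec4a1 (3.71), Pilrb2 (3.49), Pilrb1 (2.43) and Cd200r1 (2.88) and on 2 control arrays for Clec4n.

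Uptake receptors followed in part. Of 19 scavenger receptors tested, 8 rose and 0 fell (5 and 0 with the slide block, 4 to 8 and 0 to 1 without 1 array), with a median change of 0.35. Cd36, which takes up oxidised lipoprotein and fatty acids, was at -1.95, -1.08 and -1.29 in controls and 1.82, 2.02 and 1.68 in knockdown cells. It rose by 3.28 ± 0.25 with no overlap. Cd93 rose by 3.79 ± 0.28, Stab1 by 1.97 ± 0.19 and Msr1 by 1.39 ± 0.18. Tyro3 rose by 0.91 ± 0.18 on its reported probe, but its other probe gave -0.60. Cd68 (-0.60 ± 0.21) and Marco (-0.56 ± 0.23) did not pass. Among 12 Fc receptors, 4 rose and 0 fell (4 and 0 with the slide block, 4 to 5 and 0 to 2 without 1 array), and the median change was -0.02. The IgG receptors Fcgr3, Fcgr4 and Fcgr2b, the last of them inhibitory, rose by 2.92 ± 0.20, 1.92 ± 0.19 and 1.66 ± 0.18, and Fcrl1 by 1.84 ± 0.20. Fcgr1 had a change of -0.12 ± 0.20. The 22 complement genes tested had 7 rises and 2 falls (5 and 0 with the slide block, 5 to 7 and 0 to 3 without 1 array), at a median change of -0.09. C3, the central component, was at -1.74, -1.52 and -1.72 and 1.89, 2.11 and 2.48 and rose by 3.82 ± 0.20. The anaphylatoxin receptors C5ar1 and C3ar1 rose by 3.39 ± 0.20 and 3.17 ± 0.25, and Cfb by 2.85 ± 0.31. C6 and C7, of the membrane attack complex, were lower (-0.94 ± 0.19 and -0.68 ± 0.19). Of these, Tyro3, C6 and C7 did not keep the call under the slide block (adjusted p 0.155 to 0.380). In controls the signal exceeded background on 1 control array for C5ar1 (2.04), Cfb (1.12) and C6 (-0.84).

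Other surface molecules were split. Of 9 Ms4a genes tested, 3 rose and 1 fell (3 and 0 with the slide block, 2 to 3 and 0 to 2 without 1 array), with a median change of -0.23. Ms4a6c rose by 2.74 ± 0.19, Ms4a7 was at least 1.44-fold higher, and Ms4a4a fell by 1.0 ± 0.25. Among 28 integrins and leukocyte adhesion genes, 7 rose and 4 fell (3 and 2 with the slide block, 5 to 8 and 2 to 6 without 1 array), and the median change was -0.10. Itgax (CD11c) rose by 3.20 ± 0.29, Selp by 3.12 ± 0.24 and Jaml by 2.5 ± 0.22. Itga4, a subunit of VLA-4, fell by 1.57 ± 0.22 and Icam4 fell by 1.72 ± 0.21. Itgam (CD11b) had a change of -0.38 ± 0.22 that did not pass. The 33 purinergic and other G protein-coupled receptors tested had 16 rises and 1 fall (9 and 1 with the slide block, 10 to 17 and 1 to 2 without 1 array), at a median change of 0.69. Ptafr, the receptor for platelet-activating factor, was at -3.32, -3.08 and -3.18 and 0.01, -0.38 and 0.25 and rose by 3.16 ± 0.21. Adora3, an adenosine receptor, rose by 3.47 ± 0.25, and Hcar2, which senses niacin and beta-hydroxybutyrate, by 2.90 ± 0.23. Adgre1 (F4/80), the classical mouse macrophage marker, rose by 2.86 ± 0.24. The formyl peptide receptors Fpr2 and Fpr1 were at least 4.39-fold and 3.13-fold higher. Gpr183, a receptor for oxysterols, fell by 1.33 ± 0.19. The call of Ms4a4a was lost under the slide block (adjusted p 0.361). Background was exceeded in controls on 1 control array for Itgax (1.42) and Selp (1.30) and on 2 control arrays for Ms4a4a.

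Some secreted defence proteins rose. The summed neutrophil markers given above were also higher in knockdown cells, and their part in these rises was not tested. Of 20 S100 and acute phase genes tested, 8 rose and 1 fell (6 and 0 with the slide block, 7 to 9 and 1 to 3 without 1 array), with a median change of 0.10. S100a9, the partner of S100a8, rose by 2.16 ± 0.32. Slpi, a serine protease inhibitor, was at 0.20, -0.23 and 0.92 in controls and 4.67, 4.66 and 4.45 in knockdown cells and rose by 4.30 ± 0.28. Lcn2, which binds bacterial siderophores, rose by 2.78 ± 0.21, Hp (haptoglobin) by 2.92 ± 0.24, and the serum amyloid genes Saa3 and Saa1 by 4.04 ± 0.42 and 2.15 ± 0.22. S100a4 (-0.67 ± 0.23) and S100a6 (-0.33 ± 0.17) did not pass the test, and S100a5 fell by 1.19 ± 0.21. The slide block ended the calls of S100a9 and S100a5 (adjusted p 0.0542 to 0.131). Detection in controls was limited to 1 control array for S100a9 (1.08) and to 2 control arrays for Hp.

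Rises outnumbered falls among the matrix proteases and among the genes of coagulation and the serpins, and about as many members did not pass. Among 25 matrix metalloproteinase, ADAMTS and TIMP genes, 12 rose and 3 fell (9 and 2 with the slide block, 11 to 12 and 2 without 1 array), and the median change was 0.65. Mmp9, a gelatinase, was at -4.47, -4.57 and -3.54 in controls and 2.66, 2.94 and 3.07 in knockdown cells. The groups lay far apart, and the rise was 7.08 ± 0.29 (adjusted p = 4.25e-06). Mmp12, the macrophage elastase, rose by 5.01 ± 0.60, and Mmp13 and Adamts1 were at least 7.13-fold and 10.3-fold higher. Timp1, an inhibitor of these enzymes, fell by 2.53 ± 0.23, whereas Timp2 rose by 2.45 ± 0.22 on one probe and 0.20 on another. The 26 genes of coagulation, the plasminogen system and the serpins tested had 12 rises and 2 falls (10 and 1 with the slide block, 11 to 13 and 1 to 2 without 1 array), at a median change of 0.95. Thbd (thrombomodulin, which turns thrombin toward anticoagulation) was at -7.05, -6.93 and -6.0 and 0.85, 1.19 and 1.91 and rose by 7.98 ± 0.35. F3 (tissue factor) and F7, which start coagulation together, rose by 1.87 ± 0.28 and 1.70 ± 0.26, and their inhibitor Tfpi by 1.59 ± 0.23. Serpinb2, the plasminogen activator inhibitor of macrophages, was at least 14.8-fold higher. The plasminogen activators Plat and Plau rose by 3.34 ± 0.41 and 1.29 ± 0.22, and the receptor Plaur by 1.54 ± 0.27. Serpinf1 fell by 2.23 ± 0.28. Plau and Plaur were no longer called under the slide block (adjusted p 0.113 to 0.116). Signal was well above background on only 1 control array for Mmp12 (3.07), Thbd (5.76), F7 (0.18), Tfpi (0.35) and Plat (1.87) and on 2 control arrays for Mmp9.

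Osteoclast genes rose in part. Of 33 cathepsin and osteoclast genes tested, 13 rose and 1 fell (7 and 0 with the slide block, 8 to 13 and 0 to 2 without 1 array), with a median change of 0.08. Acp5 (tartrate-resistant acid phosphatase) was at 0.65, 0.45 and 0.87 in controls and 4.57, 4.72 and 4.71 in knockdown cells and rose by 4.01 ± 0.18. Nfatc1, the transcription factor that drives osteoclast formation, rose by 3.33 ± 0.19, Oscar by 1.80 ± 0.26 and Calcr by 1.51 ± 0.32. The fusion genes Dcstamp and Ocstamp had changes of -0.27 ± 0.21 and 0.42 ± 0.30 that did not pass the test, as did Tnfrsf11a (RANK, -0.04 ± 0.36). Ctsh rose by 4.62 ± 0.40, while the lysosomal cathepsins Ctsb, Ctsd and Ctss did not pass (-0.31 ± 0.19, -0.14 ± 0.19 and -0.18 ± 0.20). Of these, Calcr did not keep the call under the slide block (adjusted p 0.158). Controls were measured above background on 1 control array for Calcr (0.12) and on 2 control arrays for Oscar.

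Genes of lipid storage changed about as often as genes in general. Among 27 lipolysis and lipid droplet genes, 3 rose and 5 fell (0 and 0 with the slide block, 2 to 3 and 1 to 6 without 1 array), and the median change was -0.21. These shares, 11.1% higher and 18.5% lower, lie near those of all genes. Pnpla2, the lipase that ABHD5 activates, was at 3.90, 4.42 and 3.93 in controls and 3.32, 3.27 and 3.14 in knockdown cells and fell by 0.84 ± 0.20. Mgll, which splits monoglyceride, and Lpl fell (-0.80 ± 0.17 and -0.80 ± 0.19). Dgat2, which makes triglyceride, rose by 1.60 ± 0.31, and Hilpda, an inhibitor of ATGL, by 1.16 ± 0.24. The droplet coat gene Plin2 (0.37 ± 0.16), the ATGL inhibitor G0s2 (-0.55 ± 0.25) and hormone-sensitive lipase Lipe (0.30 ± 0.20) did not pass the test. The 28 fatty acid binding and phospholipid remodelling genes tested had 5 rises and 2 falls (5 and 0 with the slide block, 5 to 6 and 1 to 4 without 1 array), at a median change of 0.00. Acsl4, which activates arachidonic acid, rose by 1.63 ± 0.20, Mboat1 by 1.73 ± 0.18, Gpat3 by 1.53 ± 0.18 and Lpcat2 by 1.12 ± 0.19. The calls of Pnpla2, Mgll, Lpl, Dgat2 and Hilpda were lost under the slide block (adjusted p 0.173 to 0.259).

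Of 26 eicosanoid synthesis and receptor genes tested, 7 rose and 6 fell (4 and 0 with the slide block, 5 to 6 and 1 to 7 without 1 array), with a median change of -0.13. Ptgs2 (cyclooxygenase 2) rose by 2.09 ± 0.26, Hpgds, a prostaglandin D synthase, by 3.74 ± 0.34 and Alox5 by 1.42 ± 0.23. The prostaglandin E receptor Ptger2 was at least 15.1-fold higher, while Ptger4, another receptor for the same ligand, fell by 1.18 ± 0.29. Pla2g2d was at least 4.66-fold higher. Ptgir and Cysltr1, receptors for prostacyclin and leukotrienes, fell (-1.51 ± 0.32 and -1.16 ± 0.21). Among 19 cholesterol efflux and apolipoprotein genes, 2 rose and 1 fell (2 and 1 with the slide block, 1 to 4 and 1 without 1 array), and the median change was -0.02. Apod fell by 2.41 ± 0.18, Apoc2 rose by 1.71 ± 0.21, and the efflux pump Abca1 was at least 1.33-fold higher. Abcg1 (0.00 ± 0.21) and Apoe (-0.58 ± 0.22) did not pass. The slide block ended the calls of Alox5, Ptger4, Ptgir and Cysltr1 (adjusted p 0.0796 to 0.143). In controls the signal exceeded background on 1 control array for Hpgds (1.99).

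Small-molecule handling changed through a few genes with large changes. The 23 genes of arginine, polyamine and nitric oxide metabolism tested had 4 rises and 2 falls (2 and 0 with the slide block, 2 to 4 and 0 to 2 without 1 array), at a median change of -0.02. Arg2, the mitochondrial arginase, was at -2.21, -2.56 and -2.57 in controls and 0.99, 1.2 and 1.33 in knockdown cells and rose by 3.62 ± 0.19. Arg1, the cytosolic arginase of alternatively activated macrophages, was at -5.61, -6.29 and -5.58 and -2.19, -1.03 and 0.31. The knockdown values were all above the controls, which were dim, and the rise was 4.85 ± 0.54. Nos2, the inducible nitric oxide synthase that uses the same substrate, rose by 0.89 ± 0.27, but by 0.37 against control 3. Of 21 amino acid transporters tested, 4 rose and 0 fell (2 and 0 with the slide block, 3 to 5 and 0 to 1 without 1 array), with a median change of -0.07. Slc7a11, the cystine importer, was at least 6.08-fold higher, and Slc7a8 rose by 1.55 ± 0.18. Among 26 iron handling genes, 5 rose and 2 fell (3 and 1 with the slide block, 2 to 5 and 1 to 2 without 1 array), and the median change was -0.21. Cp (ceruloplasmin) and Tfrc (transferrin receptor) rose by 3.02 ± 0.26 and 1.41 ± 0.24, and Steap1 fell by 3.14 ± 0.26. Hmox1 had a change of 0.40 ± 0.17 that did not pass. Nos2 was no longer called under the slide block (adjusted p 0.492). Background was exceeded in controls on 1 control array for Arg1 (3.26).

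Antigen presentation was split within one gene family. The 30 MHC and antigen presentation genes tested had 5 rises and 5 falls (3 and 0 with the slide block, 4 to 6 and 1 to 5 without 1 array), at a median change of -0.06. Of the class II chains, H2-Aa, H2-Eb1 and H2-DMb1 rose by 2.73 ± 0.29, 2.17 ± 0.24 and 2.94 ± 0.21. H2-Ab1, the chain that pairs with H2-Aa, was at 1.03, 1.48 and 0.94 in controls and 0.10, -0.29 and -0.51 in knockdown cells and fell by 1.38 ± 0.23. H2-Oa and H2-Ob, which restrain peptide loading, fell (-1.27 ± 0.28 and -0.90 ± 0.23). Ciita (-0.06 ± 0.25) and Cd74 (-0.26 ± 0.17) did not pass, and with median centring only 1 gene of the list was lower. Of 24 costimulatory and checkpoint genes tested, 9 rose and 2 fell (7 and 1 with the slide block, 7 to 11 and 1 to 3 without 1 array), with a median change of 0.63. Cd86 was at least 2.74-fold higher, and Cd80 and Cd274 (PD-L1) rose by 1.65 ± 0.19 and 1.94 ± 0.21. Slamf9 rose by 2.89 ± 0.18, Havcr2 (TIM-3) by 1.72 ± 0.27, and Pdcd1 fell by 1.28 ± 0.19. Cd40 had a change of -0.11 ± 0.33. Of these, H2-Ab1, H2-Oa and H2-Ob did not keep the call under the slide block (adjusted p 0.0606 to 0.362). Detection in controls was limited to 1 control array for H2-Aa (0.86) and H2-DMb1 (1.49).

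Interferon-inducible genes had more falls than rises in the scaling used here, but 10 rises and 7 falls with median centring and 10 and 8 with quantile normalization. Among 61 interferon-inducible genes and interferon regulatory factors, 9 rose and 13 fell (4 and 8 with the slide block, 6 to 12 and 8 to 15 without 1 array), and the median change was -0.02. Ifi44 was at 0.69, 1.25 and 1.29 in controls and -1.74, -1.54 and -1.96 in knockdown cells and fell by 2.83 ± 0.22. Usp18, which damps interferon receptor signalling, fell by 1.79 ± 0.21, Rtp4 fell by 1.43 ± 0.21, Mx2 fell by 1.65 ± 0.33 and Irf7 fell by 1.29 ± 0.26. Irf8, a myeloid lineage factor, fell by 1.2 ± 0.20. Ifi202b and the guanylate-binding protein Gbp3 rose by 2.18 ± 0.20 and 2.85 ± 0.31, Irf4 by 1.84 ± 0.26, and the antiviral gene Rsad2 by 1.68 ± 0.30. Isg15 (0.76 ± 0.47) and Ifit1 (1.16 ± 0.40) did not pass. The calls of Irf8 and Rsad2 were lost under the slide block (adjusted p 0.0772 to 0.0872). Signal was well above background on only 1 control array for Gbp3 (1.96) and Irf4 (0.79).

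Immediate early and feedback genes rose in part, and few fell. The 37 AP-1 and immediate early genes tested had 13 rises and 0 falls (7 and 0 with the slide block, 9 to 15 and 0 without 1 array), at a median change of 0.43. Myc was at -1.42, -1.45 and -0.34 in controls and 1.65, 1.69 and 1.92 in knockdown cells and rose by 2.82 ± 0.30, or by 2.09 against control 3. Egr1 rose by 2.74 ± 0.38 and Fosl1 by 1.95 ± 0.22, whereas Fos and Junb had changes of -0.33 ± 0.31 and 0.13 ± 0.29 that did not pass. Of 32 SOCS, DUSP and Sprouty feedback genes tested, 13 rose and 2 fell (5 and 0 with the slide block, 9 to 14 and 0 to 3 without 1 array), with a median change of 0.47. Socs2 rose by 3.58 ± 0.21 and Socs3 by 1.08 ± 0.19. Dusp6 and Dusp5, phosphatases that switch off ERK, rose by 1.67 ± 0.21 and 1.91 ± 0.26, and Spry1 by 1.99 ± 0.21. Among 34 myeloid transcription factors, 10 rose and 6 fell (6 and 1 with the slide block, 7 to 13 and 2 to 6 without 1 array), and the median change was 0.10. Maf was at least 4.13-fold higher. Ahr, the aryl hydrocarbon receptor, was well above background on no control array and was called higher (adjusted p = 7.26e-05). Gata3 rose by 2.45 ± 0.22 and Rxra by 2.49 ± 0.31. Hlx, Tfeb, Lmo2 and Lyl1 were lower (-1.24 ± 0.18, -1.02 ± 0.19, -1.19 ± 0.22 and -0.89 ± 0.17), and Spi1 (PU.1) and Cebpb did not pass (0.18 ± 0.19 and 0.06 ± 0.19). The slide block ended the calls of Socs3, Tfeb, Lmo2 and Lyl1 (adjusted p 0.0574 to 0.132). Controls were measured above background on 1 control array for Socs2 (1.55) and Spry1 (0.42) and on 2 control arrays for Rxra.

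Growth factors and guidance molecules had a few large members. The 33 growth factor genes tested had 7 rises and 1 fall (3 and 0 with the slide block, 3 to 8 and 0 to 3 without 1 array), at a median change of -0.20. Areg (amphiregulin, an EGF receptor ligand) was at -5.92, -6.20 and -4.84 in controls and 0.75, 1.14 and 1.39 in knockdown cells, and rose without overlap by 6.75 ± 0.35. Vegfc, which acts on lymphatic vessels, rose by 1.88 ± 0.17, Gdf15 by 1.82 ± 0.21 and Hbegf by 1.63 ± 0.35, the last by 0.81 against control 3. Of 41 semaphorin, plexin, ephrin and Notch genes tested, 2 rose and 7 fell (4 and 3 with the slide block, 2 to 3 and 4 to 7 without 1 array), with a median change of -0.15. Sema7a was at least 9.72-fold higher and Sema4b rose by 1.77 ± 0.20, while Sema5a and the Notch ligand Jag2 fell (-2.80 ± 0.24 and -2.25 ± 0.20). Among 36 collagen and matrix genes, 4 rose and 4 fell (4 and 2 with the slide block, 3 to 5 and 2 to 5 without 1 array), and the median change was -0.17. Lamb2 rose by 1.95 ± 0.16, and Nid2, a basement membrane protein, fell by 2.27 ± 0.17. Hbegf was no longer called under the slide block (adjusted p 0.235). In controls the signal exceeded background on 1 control array for Areg (5.11).

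The Hox and B-lineage lists had more falls than rises, also with median centring (3 falls each, with 0 and 2 rises). The 25 Hox genes tested had 0 rises and 7 falls (0 and 3 with the slide block, 0 to 1 and 3 to 8 without 1 array), at a median change of -0.43. Hoxc6 was at -2.10, -1.74 and -2.31 in controls and -6.40, -6.12 and -6.24 in knockdown cells, and Hoxc4 at 0.04, 0.55 and 0.08 and -2.53, -2.86 and -2.59. Neither overlapped between the groups, and Hoxc4 fell by 2.89 ± 0.21 and Hoxb8 fell by 1.76 ± 0.20. Of 26 B-lineage genes tested, 3 rose and 9 fell (1 and 3 with the slide block, 2 to 3 and 3 to 9 without 1 array), with a median change of -0.58. Dntt, the polymerase that adds bases at immunoglobulin joints, was at -0.89, -0.81 and -1.12 and -3.22, -3.05 and -2.76 and fell by 2.07 ± 0.20. Mzb1 fell by 1.74 ± 0.24 and Cd79b fell by 1.5 ± 0.39, while Cd24a rose by 3.06 ± 0.19. Pax5 had a change of -0.58 ± 0.20 that did not pass, and the B cell markers given above summed to lower values in knockdown cells, a relation that was not tested. Among 14 oncofetal and HMGA genes, 2 rose and 2 fell (1 and 1 with the slide block, 1 to 3 and 1 to 3 without 1 array), and the median change was -0.15. Igf2bp3 and Igf2bp2 rose by 2.42 ± 0.19 and 0.93 ± 0.18, the opposite direction to their relative Igf2bp1. Hmga2 had a change of 0.64 ± 0.23. Of these, Cd79b and Igf2bp2 did not keep the call under the slide block (adjusted p 0.102 to 0.155). Background was exceeded in controls on 1 control array for Cd24a (1.51) and Igf2bp3 (0.65).

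The medians of the mitosis and replication lists lay near the median of all genes, -0.30. The 43 mitosis genes tested had 0 rises and 9 falls (0 and 0 with the slide block, 0 and 0 to 10 without 1 array), at a median change of -0.40. Mki67 fell by 0.85 ± 0.19 and Ccnb2 fell by 0.83 ± 0.18, but with median centring 0 of the 43 fell and with quantile normalization 2. Of 40 replication genes tested, 0 rose and 3 fell (0 and 0 with the slide block, 0 and 0 to 4 without 1 array), with a median change of -0.26. Mcm5 fell by 0.63 ± 0.17, and with median or quantile scaling 0 of the 40 fell. Among 25 G1 regulators, 2 rose and 1 fell (0 and 0 with the slide block, 0 to 2 and 0 to 1 without 1 array), and the median change was -0.10. Ccne2 rose by 1.85 ± 0.37, and Cdkn1a had a change of 0.41 ± 0.26. The 33 histone genes tested had 1 rise and 9 falls (0 and 2 with the slide block, 0 to 1 and 2 to 10 without 1 array), at a median change of -0.48. H1f0, the linker histone of resting cells, fell by 1.74 ± 0.26, and H2ac8 fell by 1.12 ± 0.19. With median centring 5 histone genes fell. Near-identical histone copies may share signal, so which copy changed is uncertain. Of 26 heat shock genes tested, 3 rose and 4 fell (0 and 1 with the slide block, 1 to 4 and 1 to 7 without 1 array), with a median change of -0.16. Apart from Hspb7, Hspa13 and Hspa1a rose by 1.63 ± 0.24 and 1.30 ± 0.36. The calls of Mki67, Ccnb2, Mcm5, Ccne2, Hspa13 and Hspa1a were lost under the slide block (adjusted p 0.0523 to 0.293). Detection in controls was limited to 1 control array for Ccne2 (0.70).

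**Figure D4:**
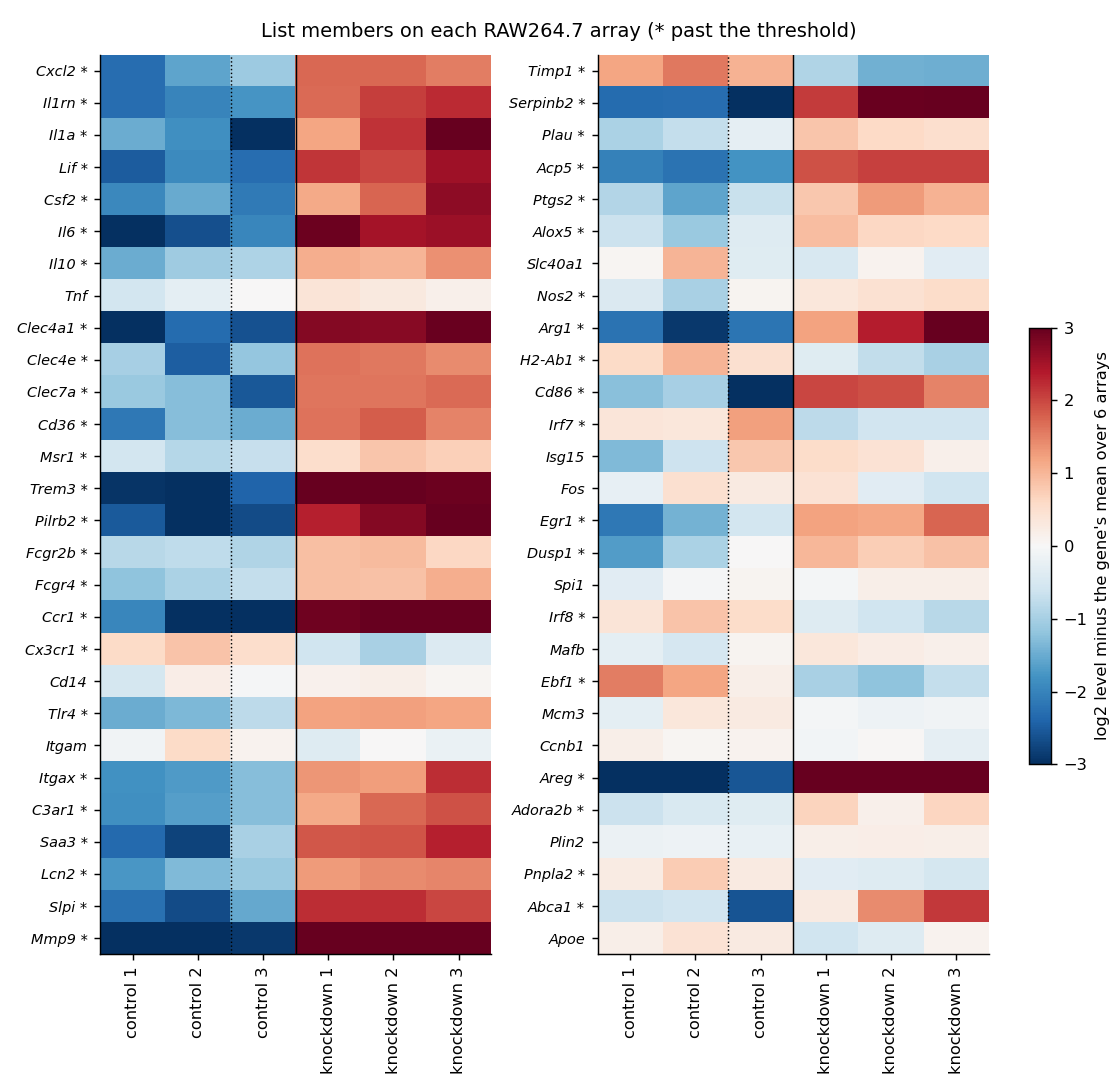
Level of list members (rows) on each of the 6 arrays (columns) as the difference from the gene's mean over the arrays (log2, colours capped at 3 in either direction). An asterisk marks genes past the threshold and the dotted line separates the slides. Areg and Mmp9 are red on all 3 knockdown arrays and blue on all 3 controls, while Tnf, Itgam and Spi1 stay near 0.

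Some of the genes that rose are neighbours on a chromosome. The stretches below were picked after their values were seen, so they describe the data and test nothing. On chromosome 5, between 91190490 and 91334593 (mm9), all 6 CXC genes tested were called higher: Cxcl5, Ppbp, Pf4, Cxcl3, Cxcl1 and Cxcl2. The slide block left 4 of the 6, without Cxcl5 and Cxcl1. After the normexp correction Cxcl5 and Cxcl1 changed by -0.16 and 0.50, and neither passed. On chromosome 11, between 81850650 and 81990510, Ccl2, Ccl7 and Ccl12 rose, and Ccl8 (-0.07 ± 0.63) and Ccl1 (-0.10 ± 0.24) did not pass. Chromosome 2 holds both interleukin-1 stretches, with 3 of 3 genes higher between 24048293 and 24205153 (Il1f9, Il1f6 and Il1rn) and 2 of 2 between 129125994 and 129190406 (Il1a and Il1b). On chromosome 6, between 122884578 and 123232937, 6 of 8 C-type lectins rose, and Clec4a4 (0.21 ± 0.20) and Clec4d (0.52 ± 0.20) did not pass. Clec4b2 rose by 5.18 ± 0.42, measured above background on 1 control array (3.52 after the normexp correction). Clec4b1, also called higher, was above background on no control and too dim for a bound over all controls. Its fitted change was 1.70, and 0.27 after the normexp correction.

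The stefin stretch on chromosome 16, between 36160118 and 36450752, was the largest in which every named gene rose, 9 of 9, also with the slide as a block, with a median change of 3.38. Stefins inhibit cysteine cathepsins and have near-identical copies in the mouse, so which copies rose is uncertain. Stfa2 is also one of the neutrophil markers. Csta3 was at -2.68, -1.85 and -1.48 in controls and 3.09, 3.20 and 3.63 in knockdown cells, and Stfa3 rose by 4.39 ± 0.25. On chromosome 9, between 7282762 and 7573471, Mmp13, Mmp12, Mmp3 and Mmp8 rose and Mmp27 (-0.48 ± 0.24) did not pass. On chromosome 5, between 138264617 and 138312162, all 3 Pilr genes rose. Other families were not uniform. In the S100 stretch on chromosome 3, between 90315191 and 90496632, 3 of 11 named genes rose (S100a3, S100a8 and S100a9) and S100a5 fell, of which the slide block left 1, S100a8. In the TREM stretch on chromosome 17, between 48385849 and 48506424, Trem3 and Treml4 rose and Treml1 fell of 6, and the slide block ended the call of Treml1 (adjusted p = 0.410). In the Hoxc stretch on chromosome 15, between 102801857 and 102867272, 4 of 6 fell, Hoxc6 and Hoxc4 by the largest amounts, and the slide block left 2 of the 4, Hoxc6 and Hoxc4.

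**Figure D5:**
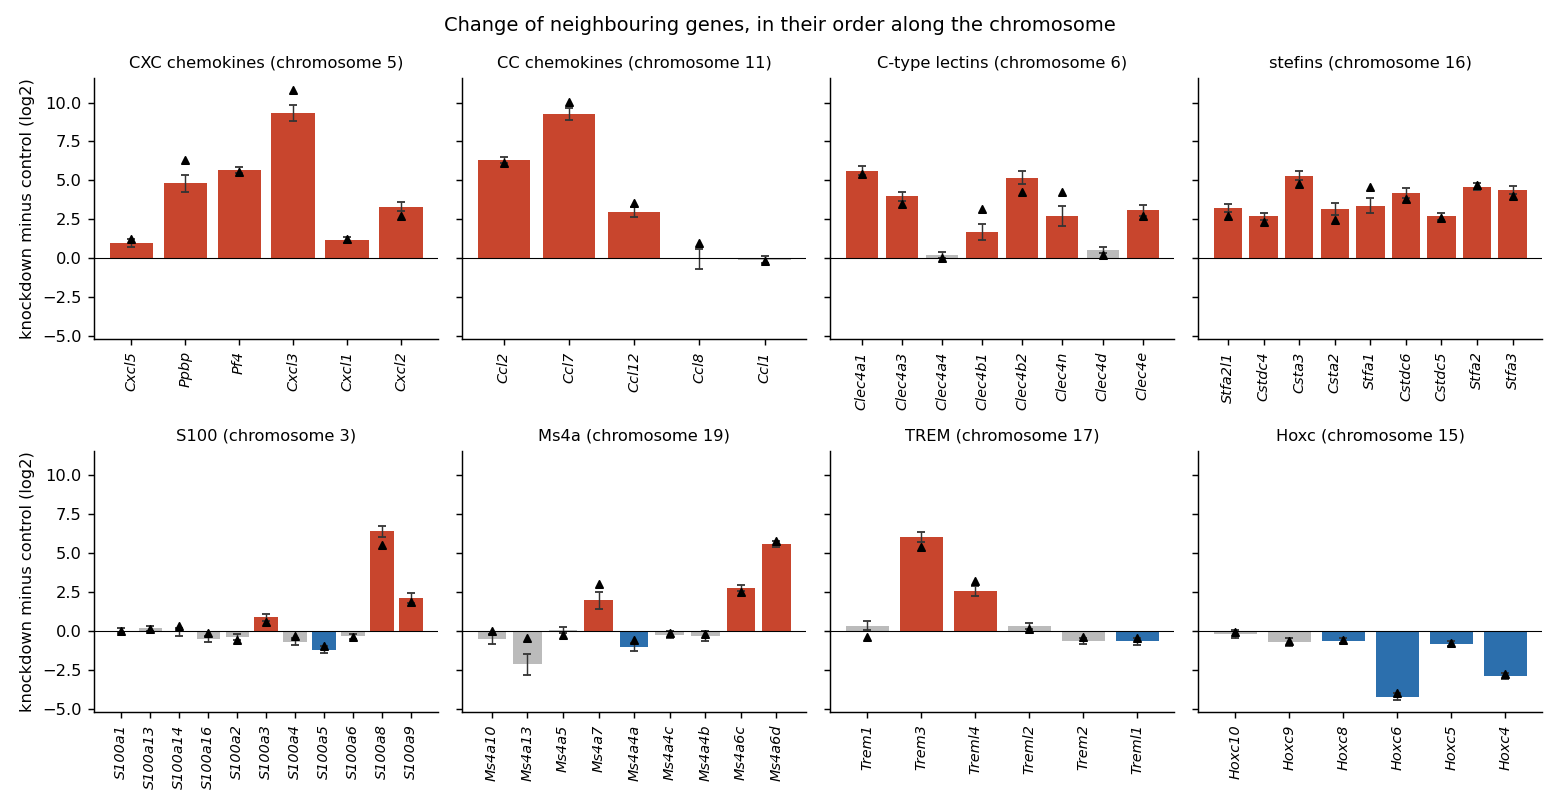
Change (log2, vertical axis; bars with limma SE) of the genes in 8 neighbour stretches in their order along the chromosome, red for higher, blue for lower and grey for not past the threshold. Triangles give the change against control 3. The stefin and CXC stretches lie wholly above 0, with medians of 3.38 and 4.06, and the Hoxc stretch lies below 0, with a median of -0.75.

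Finally, the macrophage change was set against the change in CT-26 cells primed by knockdown or control macrophages, for Abhd5 and the 5 largest rises and falls. The difference between the 2 changes passed the test for all 11 genes (31.4% of 26884 genes passed it). Since 10 of them were picked for their large RAW264.7 change, passing follows in part from the choice, and Ppfibp2, Ms4a6d and Tmem26 were not well above background on any CT-26 array. The difference in Abhd5 was -1.39 (adjusted p = 0.00254), and Abhd5 changed by only 0.07 in CT-26 cells. Ccl2 was higher in both, by 6.29 in RAW264.7 cells and 2.35 ± 0.19 (SE) in CT-26 cells. Cell line, treatment and slide cannot be told apart in this difference.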

How the data were processed

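The authors deposited scanner output of 1-colour Agilent arrays, and the intensity used is the processed signal that Agilent Feature Extraction 10.7.3.1 gives per spot, background-subtracted per the file headers. They also deposited a table of processed values on a log2 scale, used here only as an alternative. Its columns correlate at 1 with the arrays and have medians of -4.01 to -3.53, and its exact scaling is not given in the sources used here.

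Control spots (3671 on each array) and outlier-flagged spots (172 to 272) were left out, no spot was saturated, and spots of a probe were averaged. The log2 of each signal minus the array's 75th percentile was fitted without covariates by lmFit and eBayes (limma 3.58.1, R 4.3.3; two-sided tests), with Benjamini-Hochberg adjustment over 25304 genes at 0.05. Each gene has 1 probe, the brightest over all 12 arrays among those that the scanner software called well above background throughout some group, and was tested if so called throughout the controls or throughout the knockdown arrays. RefSeq tables named 26863 probes by accession, 3752 by symbol and 623 by synonym, and 24443 kept the name of the array design. For 67 genes an array was missing from the fit. The fit was also run on simulated data with independent noise per gene. The simulation held no slide effect and no detection limit, so it cannot speak to either.

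Named were Abhd5, the 12 largest rises and falls ranked by the smaller of the changes against all controls and against control 3, genes measured in only 1 group (up to 6 a direction), up to 6 members of each of 45 lists by p, and members opposite to their list. Further genes were chosen after their values were seen, such as those given as not passing. Members and lists were chosen with earlier results of these data known. Alternatives were the slide as a block, the slide of control 3 alone, the replicate number as a block, 3 other scalings or background corrections, 2 filters on dim probes, another probe choice, the authors' table, another variance model and leaving out each array. The number of arrays limits the precision.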

Additional observations from a re-analysis of the deposited data

Results flagged for a closer look

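The change in RAW264.7 cells differed from the change in primed CT-26 cells for each of the 11 genes tested (interaction term, limma, all 12 arrays, 31.4% of 26884 genes past the threshold). The difference is the RAW264.7 change minus the CT-26 change on the log2 scale, and since the genes were picked for their RAW264.7 change, a large difference follows in part from the choice. Cell line, treatment and slide cannot be told apart here.

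For Abhd5 the difference was -1.39 ± 0.24 (adjusted p = 0.00254), with a CT-26 change of 0.07. For Il1b it was 6.49 ± 0.39, with a CT-26 change of 0.31. Ccl2 gave a difference of 3.95 ± 0.27, with a CT-26 change of 2.35. Ppfibp2 and Ms4a6d gave 5.78 ± 0.43 and 4.67 ± 0.84, but neither was well above background on any CT-26 array. The difference for Pf4 was 5.08 ± 0.54, and Pf4 was well above background on 1 CT-26 array.

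Among the falls, Hspb7 gave -5.10 ± 0.26, Pxdn -5.17 ± 0.27 and Igf2bp1 -4.50 ± 0.22, each well above background on all 6 CT-26 arrays, with CT-26 changes of -0.23, 0.32 and 0.11. Hsh2d gave -4.11 ± 0.33, with a CT-26 change of -0.79. Tmem26 gave -6.59 ± 0.42 and was not well above background on any CT-26 array.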

How the results depend on the processing

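With the slide as a block 1163 genes changed, 890 higher and 273 lower, all of them by at least 2-fold, and 224 list members were called. The change of Abhd5 was then -1.23 with an adjusted p of 0.0553. On the slide of control 3 alone 1859 genes changed, 1214 higher and 645 lower, 1602 by at least 2-fold (498 of these lower), and 271 list members were called. Median centring gave 3808 changed genes, 1427 lower and 460 lower by at least 2-fold. Quantile normalization gave 1908 lower genes, 594 by at least 2-fold, and the normexp correction 5826 lower genes. Without a filter on dim probes 2615 genes changed, 1151 higher and 1464 lower, with 274 list members, and with only genes well above background on all 6 arrays 826 were at least 2-fold higher and 1061 lower, fewer genes being tested. The cause of the other differences was not tested.

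Leaving out 1 array at a time gave 1682 to 7361 changed genes, 1085 to 2290 higher and 597 to 5071 lower. Changes of at least 2-fold numbered 1620 to 3749, with 1062 to 1675 higher and 558 to 2074 lower. List members called numbered 260 to 488. The lowest counts of changed genes came without knockdown 3 and the highest without control 3. Abhd5 stayed called, at -1.44 to -1.16. Per list, rises moved by over 1.5 times for 16 of 45 lists and falls for 39.

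Of 285 named genes, 193 kept the call with the slide as a block, 217 on the slide of control 3 alone, 252 with median centring, 258 with quantile normalization, 274 with normexp, 278 with the authors' processed values and 280 with limma's trended, robust variance. Leaving out an array kept 220 to 279. Tyro3 was reversed, to -0.60 (adjusted p = 0.0809), when its probe was chosen by brightness over the 6 arrays.

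The replicate numbers did not pair the samples: same-numbered control and knockdown arrays had deviation correlations of -0.0079, 0.0426 and -0.0188. With the replicate block 4785 genes changed, 1887 higher and 2898 lower, and Abhd5 kept its call (adjusted p = 0.00873). Of the 285 named genes 273 kept theirs with this block, and all 11 differences from CT-26 cells did so.

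Detection limits the dim genes: the lowest signal called above background was -4.80 on controls 1 and 2, -6.75 on control 3 and -6.93 to -6.32 on the knockdown arrays. Levels below -4.80 were therefore measured on 1 control array at most.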
